A study of Mus musculus with 6 samples.

Results

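Thyroid hormone signalling genes were followed in vascular endothelial cells (VECs) sorted from the postnatal retina, in control animals and in animals with floxed Bmal1 and an inducible Cre. The genes were chosen by name, with earlier results of these data known. They are the nuclear receptors Thra and Thrb, the deiodinases Dio2 and Dio3, the transporter Slco1c1, the binding protein Ttr, the responsive gene Klf9, the corepressor Ncor1 and the coactivator Ncoa1. All 9 are present, once each, among the 55487 genes of the deposited table, and 7 of them passed the filter of at least 10 reads in at least 3 libraries that 20459 genes passed. VECs were FACS sorted at P7.5 from 3 Bmal1FL/FL;tdTomatoFL/+;Pdgf-icreER (Bmal1;CKO) and 3 tdTomatoFL/+;Pdgf-icreER (control) animals. Controls too carried the Cre transgene and the tdTomato reporter, and tamoxifen was given to both groups at P0.5 to P2.5. The design aims at deletion of Bmal1 after birth in cells that express the Pdgf-icreER transgene. The sorted cells were positive for both tdTomato and the GFP that the Pdgf-icreER transgene itself expresses. The small amount of RNA was amplified before library preparation. The control libraries are called 1, 2 and 3 and the Bmal1;CKO libraries 4, 5 and 6, as in the table, and these numbers could not be matched to single animals.

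Thyroid hormone reaches a cell mostly as the prohormone thyroxine (T4), which is carried in blood and fluids by binding proteins such as transthyretin and crosses membranes through transporters. Inside the cell, outer-ring deiodination makes the active triiodothyronine (T3), and inner-ring deiodination inactivates both. T3 binds nuclear receptors that sit on DNA with retinoid X receptors: without hormone they hold corepressors, and with hormone they exchange these for coactivators. In the retina the pathway is best known for cone photoreceptors, where the TRβ2 form of Thrb directs the choice and the gradient of cone opsins. Endothelial cells of the blood-brain and blood-retina barriers are known for hormone transport. BMAL1 with CLOCK activates genes through E-boxes with the letters CACGTG.

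None of the 7 tested genes changed between the genotypes beyond the spread between libraries. The study itself reported thyroid hormone signalling as an enriched pathway under its more lenient cutoff, without adjustment for the number of genes. Its discussion lists the pathway among those most altered in Bmal1;CKO endothelial cells. Which genes gave that enrichment was not tested here, and the lists used here were chosen separately. In the limma-trend fit over all 20459 tested genes, 0 of the 7 tested members had an adjusted p under 0.05, as was so for 0.0% of all tested genes (0 genes, with 1007 at an unadjusted p under 0.05). At an unadjusted p under 0.05 there were also 0 of 7, beside 4.92% of all tested genes. The libraries of the groups overlapped in all 7, whereas in 11.2% of the tested genes they did not. Of the 7, 3 had a positive and 4 a negative log2 fold change, where positive is higher in Bmal1;CKO, with a median of -0.09 beside 0.11 over all tested genes. That background moved with the filter and the method. It was -0.006 when every library needed 10 reads, and -0.03 by edgeR with the deposited size factors. All 7 members were kept in both, with a median of -0.09 in each, so a lean against the background is not read from these values. What set the members apart from each other was how far the libraries spread. Thra, Klf9, Ncor1 and Ncoa1 varied by 1.38-fold to 2.25-fold between the highest and the lowest of the 6 libraries. Thrb, Slco1c1 and Ttr varied by 28.5-fold, 10.7-fold and 7.81-fold, and the remaining Dio2 and Dio3 were at or near 0.

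**Figure D1:**
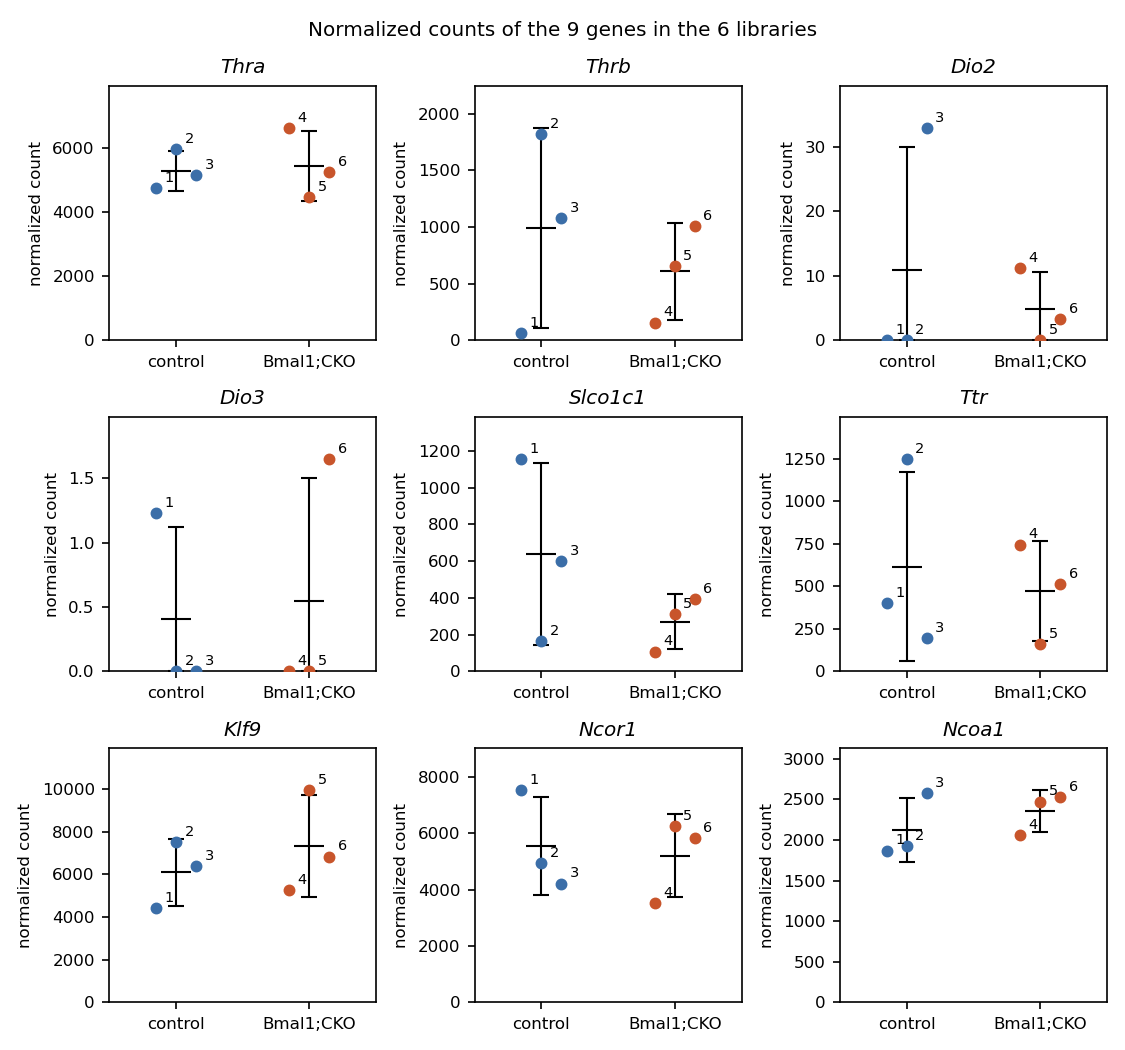
Normalized count (read count divided by the size factor of its library) of each of the 9 genes, with 1 point per library marked by its number, control in blue and Bmal1;CKO in orange. Bars give the mean and the SD of 3 libraries, with lower bars ending at 0 where the SD exceeds the mean, and the groups overlap in every panel, from Thra with 4462 to 6601 to Dio3 with at most 1.65.

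The sorted cells had between 71145068 and 104017800 reads on genes per library. The targeted gene, Bmal1, listed as Arntl, had 1700.4, 3489 and 2928 normalized counts in control and 1779, 2747 and 2415 in Bmal1;CKO. Its log2 fold change was -0.19 (SE 0.36, adjusted p = 0.924 from limma-trend), and the table holds 1 value per gene, so that reads on the floxed part alone were not analysed here. By droplet digital PCR, the study reported significantly less Bmal1 transcript in sorted endothelial cells of the mutant genotype than of the control. All 12 endothelial markers, among them Cldn5 and Cdh5, had at least 10 reads in every library, with a summed level of 112245 to 361784 normalized counts. The same was so for all 9 markers of microglia, with a sum of 1386183 to 4103347, and all 8 of rods, with 255328 to 483589. The libraries therefore held RNA of other cell types, and in such bulk samples fewer cells of a type and less RNA per cell cannot be told apart. Whether these cell types took part in any difference below was not tested.

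Levels of the members were compared per kilobase of exon. Klf9 was highest, at 1395 ± 400 normalized counts per kilobase (SD, n = 6), above 82.5% of the tested genes. Thra followed with 1161 ± 172, and the ranges of the pair overlapped, with Klf9 above Thra in 4 of 6 libraries. Ttr (459 ± 342) and Ncor1 (421 ± 114) had ranges that overlapped widely, and Ttr was above Ncor1 in 2 of 6 libraries. Thra exceeded Ttr, and Ncor1 exceeded Ncoa1 (261 ± 37.5), in 6 of 6 libraries. Thrb (108 ± 88.4) and Slco1c1 (87.8 ± 74.1) did not differ beyond their spread, since Thrb was above Slco1c1 in 5 libraries and far below it in control library 1. The deiodinases lay at the bottom, with Dio2 at 1.36 ± 2.23 and Dio3 at 0.236 ± 0.372 per kilobase, and Dio2 was below Slco1c1 in 6 of 6 libraries without overlap. Genes of one library share its depth and composition, and these orders are descriptions. The length was that of all annotated exons merged, and the length of the transcripts present was not measured.

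**Figure D2:**
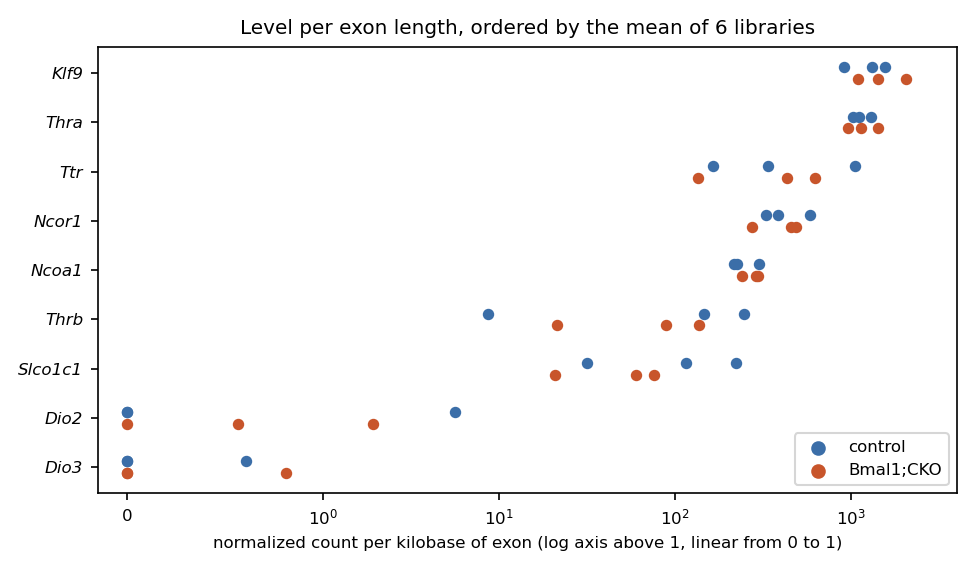
Normalized count per kilobase of exon for each gene (rows, ordered by the mean of 6 libraries) on an axis that is linear from 0 to 1 and logarithmic above, with 1 point per library in blue for control and orange for Bmal1;CKO. Klf9 and Thra lie between 916 and 2061, Thrb and Slco1c1 spread more than 10-fold, and Dio2 and Dio3 reach at most 5.65 and 0.812.

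Of the receptors, Thra was even and abundant and Thrb was uneven. Thra (ENSMUSG00000058756, chromosome 11 of GRCm38, forward strand, 98740638 to 98769006) encodes TRα1, which binds T3, and TRα2, which does not, and a gene count holds both. It had 4738, 5961 and 5140.1 normalized counts in control libraries 1 to 3 and 6601, 4462 and 5235 in Bmal1;CKO libraries 4 to 6. The highest and the lowest library were both Bmal1;CKO, and the control libraries lay between them. The means were 5279.9 ± 623 in control and 5433 ± 1083 in Bmal1;CKO (SD, n = 3 each), and the log2 fold change was 0.03 (SE 0.25, 95% interval -0.56 to 0.62, adjusted p = 0.987 from limma-trend). That interval spans 0, and a difference between its bounds could not be told from none.

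The last exon of Thra overlaps the clock gene Nr1d1 (REV-ERBα), which runs on the other strand. The exons of the genes share 263 bases, which is 5.70% of the exon length of Thra and 8.55% of that of Nr1d1. The Nextera XT kit does not mark strand, so reads from the shared bases cannot be assigned to either gene by strand. Nr1d1 had 17.2, 613 and 1081 normalized counts in control and 1159, 799.8 and 1585 in Bmal1;CKO. Thra was within 1.48-fold over the same libraries, in which Nr1d1 varied by 92.0-fold.

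Thrb (ENSMUSG00000021779, chromosome 14, forward strand, 17660261 to 18038090) encodes the TRβ1 and TRβ2 receptors from separate promoters. It had 64.0, 1822 and 1078 normalized counts in control and 158, 657 and 1011 in Bmal1;CKO. Control library 1 and Bmal1;CKO library 4 were low, and the other 4 libraries lay between 657 and 1822. The low libraries also had the fewest genes with a read, 21598 and 22142, beside 23889 to 27904 in the other 4. Whether this bears on Thrb was not tested. The means of 988 ± 882 and 609 ± 429 (SD, n = 3 each) gave a log2 fold change of -0.09 (SE 1.30, 95% interval -3.10 to 2.92, adjusted p = 0.991 from limma-trend). It was -1.57 without control library 1 and 0.84 without control library 2, so that even its direction rested on single libraries. edgeR's estimate was -0.70 with the deposited size factors. The 2 RefSeq promoters of Thrb on GRCm38.p6 are shown because the RNA was so uneven and because each holds a motif of interest, in capitals. Both run from 250 bases before to 50 after a start site. The upstream one, at chr14:17660710-17661009, has AGGTCA, the half-site bound by thyroid hormone receptors and many other nuclear receptors, and the inner one, at chr14:17981394-17981693, has the E-box CACGTG. The table counts all transcripts of the gene together, so the reads of the promoters were not separated.
Thrb upstream promoter: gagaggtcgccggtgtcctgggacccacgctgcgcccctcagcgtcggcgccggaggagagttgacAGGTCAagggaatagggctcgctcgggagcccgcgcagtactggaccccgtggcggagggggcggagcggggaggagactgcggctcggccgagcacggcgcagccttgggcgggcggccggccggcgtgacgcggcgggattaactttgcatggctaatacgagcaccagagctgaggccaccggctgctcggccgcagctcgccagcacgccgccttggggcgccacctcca
Thrb inner promoter: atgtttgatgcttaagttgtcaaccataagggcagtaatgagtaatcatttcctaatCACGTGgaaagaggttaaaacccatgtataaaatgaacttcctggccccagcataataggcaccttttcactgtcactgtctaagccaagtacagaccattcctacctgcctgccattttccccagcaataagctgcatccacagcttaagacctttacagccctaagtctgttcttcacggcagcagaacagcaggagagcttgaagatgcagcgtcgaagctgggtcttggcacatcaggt

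Read per library against the cone markers, Thrb stayed uneven. The 8 cone markers, among them the opsins Opn1sw and Opn1mw and the arrestin Arr3, all passed the filter, and 7 had at least 10 reads in every library. Their summed level was 62473 to 102887 normalized counts in control and 91072 to 112627 in Bmal1;CKO. Per 1000 of that sum, Thrb had 1.02, 17.7 and 13.2 in control and 1.55, 5.84 and 11.1 in Bmal1;CKO (two-sided exact permutation test, p = 0.5, with 0.1 the smallest that 3 against 3 allow). Control library 1 was also the lowest in Opn1sw (2531, with 14661 to 20014 in the others) and in Arr3 (49.2, with 360.1 to 908 in the others), and Opn1mw was at 0 reads there. The sum in control library 1 came mostly from Gnb3 (28544) and Gngt2 (28464), of which Gngt2 was not low there, so these 2 genes carry its ratio. Bmal1;CKO library 4, the other library with little Thrb, was mixed in the cone markers. That library had 18170.0 normalized counts of Opn1sw and 3399 of Pde6h, but 360.1 of Arr3 and 302 of Pde6c. Libraries 2, 3, 5 and 6 had 765 to 908 of Arr3 and 572 to 1077 of Pde6c. Between the receptors, Thra exceeded Thrb per kilobase in every library, by 5.25-fold in control library 2 to 119-fold in control library 1.

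The deiodinases, selenoenzymes that set local T3, were almost unread. Dio2 (ENSMUSG00000007682, chromosome 12, reverse strand, 90724552 to 90738438) makes T3 from T4. It had 0, 0 and 46 reads in control and 8, 0 and 4 in Bmal1;CKO, or at most 32.9 normalized counts. Dio3 (ENSMUSG00000075707, chromosome 12, forward strand, 110279068 to 110281097), which inactivates T4 and T3, had 1, 0 and 0 reads in control and 0, 0 and 2 in Bmal1;CKO. A count of 0 allows up to 3 reads, which is 2.14 to 4.22 normalized counts depending on the library, and covers counting error only. Dio2 therefore exceeded that limit in 3 libraries, control 3 and Bmal1;CKO 4, and narrowly in Bmal1;CKO 6, while Dio3 was at or under it in all 6. Neither passed the filter, so neither was in the main limma-trend fit, and a difference between the genotypes was not detectable at this depth. Dio1, the third deiodinase, had 0 reads in 5 libraries and 18.1 normalized counts in Bmal1;CKO library 5.

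Slco1c1 had the most negative fold change of the members, within a wide spread. Slco1c1 (ENSMUSG00000030235, chromosome 6, forward strand, 141524368 to 141570177) encodes OATP1C1, a high-affinity T4 transporter of barrier endothelium. It had 1154, 165 and 599 normalized counts in control and 108, 312 and 395 in Bmal1;CKO. The top 2 libraries were control, but control library 2 lay below Bmal1;CKO libraries 5 and 6, so the groups overlapped. The means were 639 ± 496 and 272 ± 147 (SD, n = 3 each), and the log2 fold change was -1.03 (SE 0.86, 95% interval -3.04 to 0.98, adjusted p = 0.883 from limma-trend). The two-sided exact permutation test on the means gave p = 0.3. The fold change stayed negative with each library left out, at -1.80 with control library 2 removed, -0.41 with control library 1 removed, and -0.47 without Bmal1;CKO library 4.

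The endothelial markers are given beside Slco1c1. All 12 had a negative log2 fold change, from -1.22 to -0.28 with a median of -0.54, as had 8889 of the 20459 tested genes. Of the 12, 0 reached an unadjusted p under 0.05 and the groups overlapped in each. Their sum was 361784, 202194 and 184308 normalized counts in control and 199254, 112245 and 233902 in Bmal1;CKO. Cldn5 was the largest part of the sum in every library, from 60099 in Bmal1;CKO library 5 to 201094 in control library 1. Per 1000 of that sum, Slco1c1 had 3.19, 0.817 and 3.25 in control and 0.544, 2.78 and 1.69 in Bmal1;CKO (two-sided exact permutation test, p = 0.5). The sums overlapped too, since Bmal1;CKO library 6 exceeded control libraries 2 and 3. Per endothelial sum, control libraries 1 and 3 were level with each other and highest, and control library 2 and Bmal1;CKO library 4 were low.

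The RefSeq promoter of Slco1c1 on GRCm38.p6, at chr6:141524104-141524403, is shown because it holds the E-box CACGTG, in capitals, 20 bases into the transcript. Promoters in the table were found for 7 of the 9 genes, 9 promoters in all, and no entry was found for Thra and Ttr. CACGTG was present in 2 of the 9, that of Slco1c1 and the inner one of Thrb, where 7.15% of all 32851 promoters hold it. AGGTCA, searched on both strands, was present in 1 of the 9 and in 16.3% of all promoters. A match is a description of letters and not a bound site.
Slco1c1 promoter: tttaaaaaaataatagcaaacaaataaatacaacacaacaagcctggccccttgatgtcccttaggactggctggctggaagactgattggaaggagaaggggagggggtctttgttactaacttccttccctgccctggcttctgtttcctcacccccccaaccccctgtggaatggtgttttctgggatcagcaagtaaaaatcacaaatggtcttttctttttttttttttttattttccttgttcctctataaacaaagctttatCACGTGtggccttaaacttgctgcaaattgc

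Ttr (ENSMUSG00000061808, chromosome 18, forward strand, 20665280 to 20674321) encodes transthyretin, a T4 and retinol carrier that liver, choroid plexus and the retinal pigment epithelium (RPE) produce. It had 402, 1247 and 196 normalized counts in control and 745, 159.8 and 516 in Bmal1;CKO. Control library 2 was highest, Bmal1;CKO library 5 and control library 3 were lowest, and the groups overlapped. The means were 615 ± 557 and 474 ± 295 (SD, n = 3 each), and the log2 fold change was -0.23 (SE 0.86, 95% interval -2.22 to 1.76, adjusted p = 0.963 from limma-trend). It was 0.49 without control library 2 and 0.42 without Bmal1;CKO library 5, and negative without any of the others.

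Of 10 RPE markers 9 passed the filter, but only 2 had at least 10 reads in every library. Rpe65, the visual cycle isomerase that defines the RPE, had 0 to 24.6 normalized counts, and Lrat 0 to 35.0. The summed level of the list was 1456, 4385 and 2366 in control and 3037, 2181 and 3271 in Bmal1;CKO. The library with the most Ttr, control library 2, also had the highest sum, with 908 normalized counts of the pigment gene Pmel and 1885 of Dct, but 0 of Rpe65. Per 1000 of the sum Ttr still varied, with 276, 284 and 83.1 in control and 245, 73.3 and 158 in Bmal1;CKO (two-sided exact permutation test, p = 0.5). The sum in control library 1 came mostly from Rgr (1148), with 1.23 of Pmel, so that 1 gene largely carries its ratio. Control library 2 had 595 of Rgr.

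**Figure D3:**
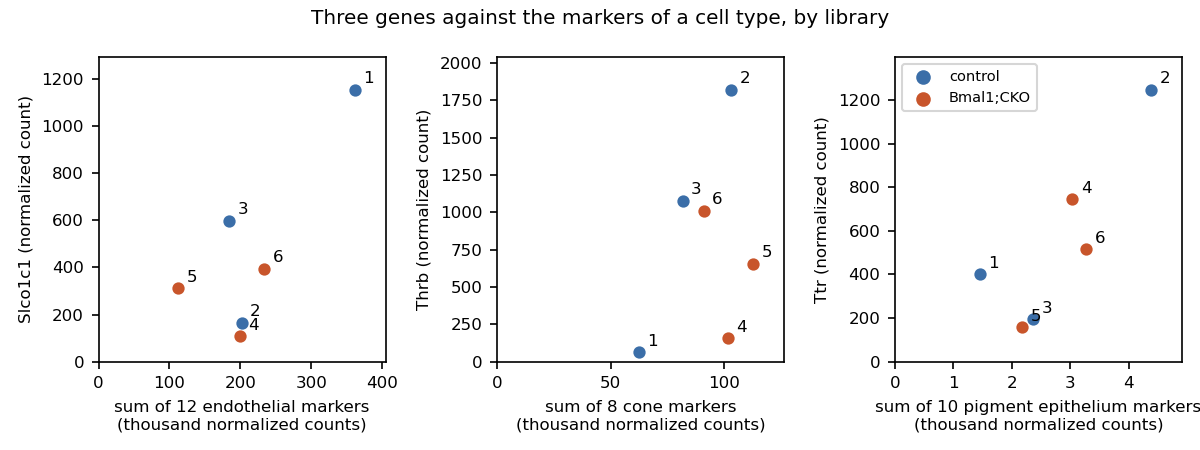
Normalized counts of Slco1c1, Thrb and Ttr (vertical axes) against the summed normalized counts, in units of 1000, of 12 endothelial, 8 cone and 10 pigment epithelium markers (horizontal axes), with 1 numbered point per library, control in blue and Bmal1;CKO in orange. Control library 1 has the highest endothelial sum and the most Slco1c1 (1154), and the lowest cone sum and the least Thrb (64.0), and control library 2 has the highest pigment epithelium sum and the most Ttr (1247).

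Klf9 (ENSMUSG00000033863, chromosome 19, forward strand, 23141226 to 23168134) encodes a zinc finger transcription factor that T3 and glucocorticoids induce. It had 4411, 7506 and 6370.5 normalized counts in control and 5252, 9926 and 6827 in Bmal1;CKO. Bmal1;CKO library 5 stood highest and control library 1 lowest, and the other 4 libraries were interleaved. The means were 6096 ± 1566 and 7335 ± 2378 (SD, n = 3 each), and the log2 fold change was 0.25 (SE 0.33, 95% interval -0.51 to 1.01, adjusted p = 0.898 from limma-trend). It was positive with each library left out, at 0.47 without Bmal1;CKO library 4 and 0.01 without Bmal1;CKO library 5. Per 1000 of the endothelial sum Klf9 had 12.2, 37.1 and 34.6 in control and 26.4, 88.4 and 29.2 in Bmal1;CKO (two-sided exact permutation test, p = 0.6). Bmal1;CKO libraries 4 and 6 lay below control libraries 2 and 3 in this ratio. The endothelial sum itself was lowest in Bmal1;CKO library 5 (112245) and highest in control library 1 (361784). Which cell types gave the Klf9 reads was not tested.

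The corepressor and the coactivator were both read in depth in every library. Ncor1 (ENSMUSG00000018501, chromosome 11, reverse strand, 62316426 to 62458541) brings the histone deacetylase HDAC3 to receptors without hormone. It had 7530.0, 4943 and 4215 normalized counts in control and 3526, 6273 and 5846 in Bmal1;CKO. Control library 1 was highest and Bmal1;CKO library 4 lowest, and the means of 5563 ± 1742 and 5215 ± 1478 (SD, n = 3 each) gave a log2 fold change of -0.09 (SE 0.34, 95% interval -0.88 to 0.69, adjusted p = 0.961 from limma-trend). The sign turned to 0.15 without control library 1 and 0.17 without Bmal1;CKO library 4. The processed pseudogene Gm6743 matches Ncor1 over 255 bases at 95.3% identity and had a mean of 1991 normalized counts, so reads there could have been placed in either gene. Ncor1 also shares 82 bases of exon with Pigl and 1 with Ttc19, both on the other strand.

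Ncoa1 (ENSMUSG00000020647, chromosome 12, reverse strand, 4247362 to 4477182) encodes SRC-1, a coactivator that liganded receptors bind. It had 1868, 1927 and 2573 normalized counts in control and 2055, 2471 and 2527 in Bmal1;CKO. It was the most even of the members, within 1.38-fold, with the highest value in control library 3. The means were 2123 ± 391 and 2351 ± 258 (SD, n = 3 each), and the log2 fold change was 0.16 (SE 0.28, 95% interval -0.49 to 0.80, adjusted p = 0.914 from limma-trend). With 1 library left out it ran from 0.07 to 0.30. The ratio of Ncor1 to Ncoa1 per kilobase was 2.70, 1.72 and 1.10 in control and 1.15, 1.70 and 1.55 in Bmal1;CKO (two-sided exact permutation test, p = 0.6). By this measure, with merged exons as the length, the corepressor exceeded the coactivator in 6 of 6 libraries, in some only slightly.

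**Figure D4:**
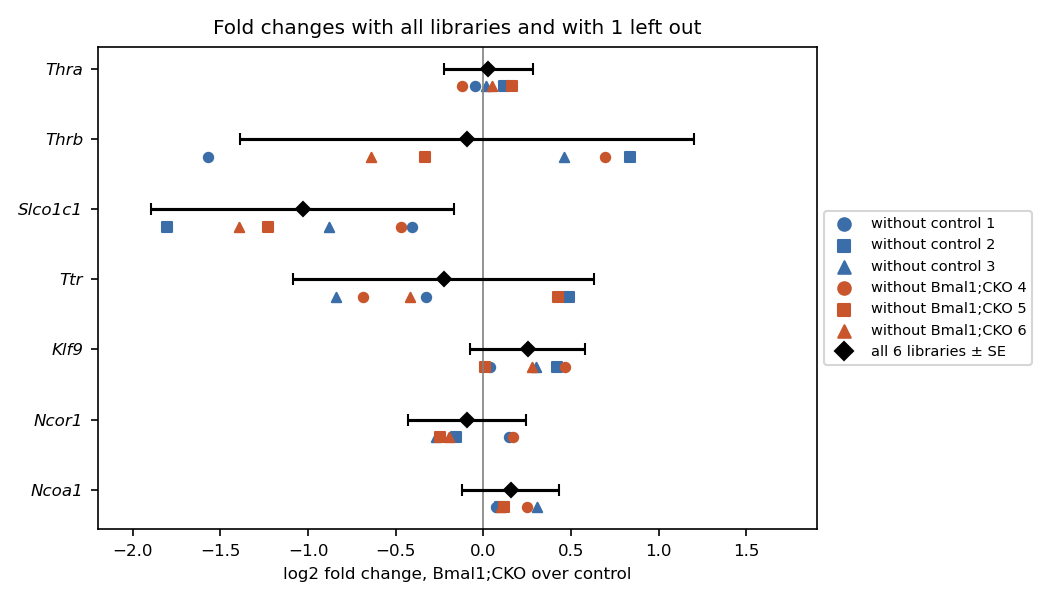
Log2 fold change of Bmal1;CKO over control (horizontal axis) for the 7 tested genes, as a black diamond with its SE for all 6 libraries and, beneath it, as coloured symbols with each library left out in turn. Slco1c1, Klf9 and Ncoa1 keep their sign throughout, whereas Thra, Thrb, Ttr and Ncor1 cross 0, Thrb from -1.57 to 0.84.

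A further 47 genes of the pathway were listed by role, of which 44 passed the filter. Of these, 32 had a positive and 12 a negative log2 fold change (72.7% positive, beside 56.6% of all tested genes), with a median of 0.30 beside 0.11. When every library needed 10 reads, all 44 were kept and 32 were positive. The background was then 49.5% positive, with a median of -0.006. In edgeR's fit with the deposited size factors 29 of the 44 were positive, beside 47.9% of all tested genes. By limma-trend without control library 2, 25 of the 44 were positive, beside 55.1% of all tested genes. With any other library left out 30 to 33 of them were. By limma-trend 0 of the 44 had an adjusted p under 0.05. At an unadjusted p under 0.05 there was 1 higher and 1 lower, beside 3.17% and 1.75% of all tested genes. The groups did not overlap in 4 that were higher and 2 that were lower, beside 6.62% and 4.54% of all tested genes.

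The receptor partner Rxrg was the gene at an unadjusted p under 0.05 with the higher level. RXRγ is the retinoid X receptor that cones are known to express. It had 1558, 956 and 1477 normalized counts in control and 2169, 2408 and 2039 in Bmal1;CKO. Each Bmal1;CKO library exceeded every control library, with a log2 fold change of 0.76 (SE 0.31, unadjusted p = 0.0432, adjusted p = 0.883 from limma-trend). The limma-trend unadjusted p was 0.125 without control library 2 and 0.0884, 0.132 and 0.0810 without Bmal1;CKO libraries 4, 5 and 6. It was 0.0238 and 0.0433 without control libraries 1 and 3. By edgeR with the deposited size factors the unadjusted p was 0.0543 and by DESeq2 0.0342. Of the cone markers 7 of 8 had a positive log2 fold change, with a median of 0.46 and 0 at an unadjusted p under 0.05. The same sign was found for 8 of 9 microglia markers (median 0.40) and 5 of 5 tested Müller glia markers (median 0.48). Of the rod markers 7 of 8 had a negative one (median -0.26), 1 of them at an unadjusted p of 0.0178 without overlap. Their part in the values of Rxrg was not tested. The sister receptors Rxra and Rxrb had log2 fold changes of -0.25 and 0.27, and Rxrb was the highest of the 3 per kilobase (2239).

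Atp2a2, the SERCA2 calcium pump that T3 induces in heart, was the gene with the lower level. It had 3750.2, 3429 and 4953 normalized counts in control and 1556, 1744 and 3117 in Bmal1;CKO. Each Bmal1;CKO library was below every control library, with a log2 fold change of -0.97 (SE 0.34, unadjusted p = 0.0233, adjusted p = 0.883 from limma-trend). The limma-trend unadjusted p was 0.0820 without Bmal1;CKO library 4, 0.0792 without library 5 and 0.0704 without control library 3. It was 0.00698 without Bmal1;CKO library 6, and 0.0252 and 0.0322 without control libraries 1 and 2. By edgeR with the deposited size factors the unadjusted p was 0.0305 and by DESeq2 0.0204. Malic enzyme Me1, a lipogenic T3 target, had groups that did not overlap as well, with 506 to 662 in control and 163 to 439 in Bmal1;CKO (log2 fold change -1.04, unadjusted p = 0.0921). Mbp, the myelin basic protein gene that T3 induces, had no overlap in the other direction, with 1532 to 2276 in control and 2429 to 3235 in Bmal1;CKO (log2 fold change 0.49, unadjusted p = 0.132). Of the 11 targets 4 had a positive and 7 a negative log2 fold change. Among the latter was Slc2a1, the glucose transporter of barrier endothelium, at -0.30. Among the former was Ucp2, the mitochondrial carrier and highest of the list per kilobase (9189), at 0.66. Hr, a corepressor that T3 induces directly in brain, had 54.1, 247 and 397 normalized counts in control and 172, 269 and 343 in Bmal1;CKO, low in control library 1 like Thrb.

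Of the other transporters all 7 passed the filter, 6 with a positive and 1 with a negative fold change. Slc16a10 (MCT10) had 137 to 226 in control and 259.5 to 435 in Bmal1;CKO, without overlap (log2 fold change 0.95, unadjusted p = 0.140). The amino acid transporter Slc7a5 (LAT1) and its partner Slc3a2, which also carry thyroid hormone, were the highest of the list per kilobase, at 5019 and 16412, and had log2 fold changes of -0.58 and 0.08.

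Crym, a cytosolic T3-binding protein, had 18609.7, 20281 and 23609 normalized counts in control and 42976, 37806 and 22217 in Bmal1;CKO, where library 6 overlapped the control libraries (log2 fold change 0.67, unadjusted p = 0.0623). The serum carrier Serpina7 had 0 reads in all 6 libraries and Alb had reads in 2. Of the genes for making selenoproteins, Secisbp2 had 2106 to 2448 normalized counts in control and 2975 to 4077 in Bmal1;CKO, without overlap (log2 fold change 0.57, unadjusted p = 0.0606), while Sephs2 and Eefsec, the highest per kilobase, were at 0.00 and 0.60. The integrin subunits Itgav and Itgb3, which form a membrane receptor for T4, had log2 fold changes of -0.26 and 0.74, and Itgb3 ranged from 129.9 in control library 2 to 3296 in control library 1. All 10 coactivators passed the filter, 9 positive, with Med24 and Carm1 the highest per kilobase at 0.49 and 0.26. All 6 corepressors passed, 5 positive, with Gps2 and Hdac3 the highest per kilobase at 0.37 and 0.30. None of these lists held a gene at an unadjusted p under 0.05.

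**Figure D5:**
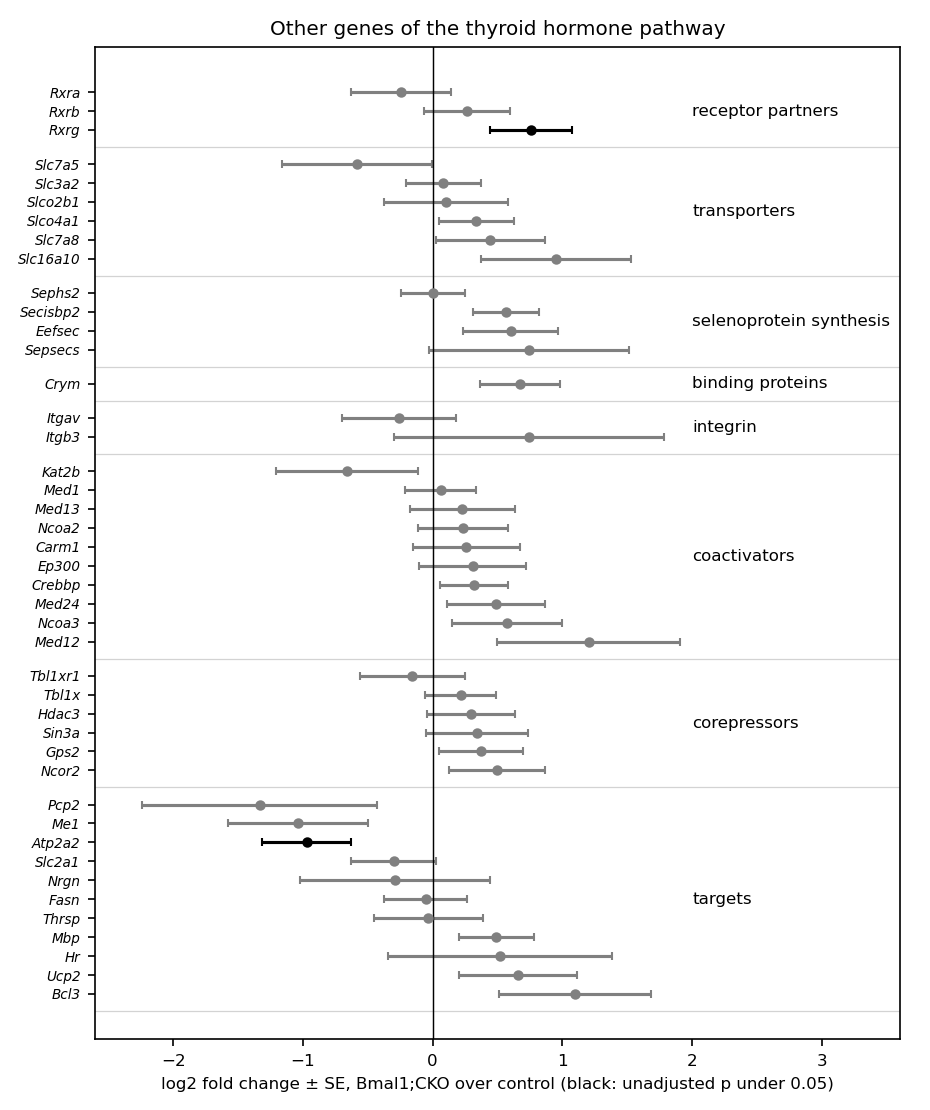
Log2 fold change with its SE, Bmal1;CKO over control, of tested pathway genes outside the 9 members, grouped by role from receptor partners at the top to target genes at the bottom. Black marks the 2 genes at an unadjusted p under 0.05, Rxrg at 0.76 and Atp2a2 at -0.97, and most of the genes lie right of 0.

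The tested genes most like a member across the 6 libraries were found by the mean absolute difference of log2(normalized count + 1), after each gene was centred on its own mean. For Slco1c1 they were the lincRNA Gm20939 (0.233), Cast (0.241) and Tgfbr3 (0.247), where the median of all genes was 1.07. For Klf9 they were Ubap1l (0.0628), Ogdhl (0.0733) and Ccdc77 (0.0770), with a median of 0.631. Thra was closest to Adprh (0.0391), C1qbp and Tax1bp3, Ncor1 to Map4k4 (0.0678), Vash1 and Srpk2, and Ncoa1 to Abhd16a (0.0382), 2410131K14Rik and Nrbp1. With 6 libraries and 20459 genes such likeness is a description only.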

How the data were processed

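RNA was sequenced from FACS-sorted retinal VECs of 3 control and 3 Bmal1;CKO mice, with each library a column of the table. Per the study's methods and the submitters' processing notes, the authors used Trimmomatic for trimming, Bowtie for alignment to GRCm38 (mm10) and featureCounts for gene counts. The use of strand and the tool versions are not given in the sources used here. The deposited values, a signal called the normalized count here, are gene counts scaled by DESeq2 size factors. The authors' own fold changes, errors and p-values in the table were not used. Dividing each column by its smallest step gave whole reads for 100% of values (within 0.01 of a read). The file's starts count from 0 and were raised by 1, after which all 9 members had the coordinates of GENCODE M21 (GRCm38), whose merged exons gave lengths.

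A gene entered with 10 or more reads in 3 or more libraries. The test was limma-trend (limma 3.58.1, R 4.3.3) on log2(normalized count + 1), by genotype alone, with Benjamini-Hochberg adjustment over all of them. The fold change understates that of low genes. For a single value, an exact permutation test used all 20 assignments of libraries to groups. P-values weigh the difference of the groups against the spread between these libraries, which limma-trend adjusts with a trend over all genes. Alternatives on recovered reads were edgeR 4.0.16 (quasi-likelihood) and DESeq2 1.42.0, with other pseudocounts, filters and TMM scaling, and each library left out. Transcripts were searched for copies with blastn 2.17.0 (at least 95% identity over at least 150 bases). Promoters are RefSeq sequences on GRCm38.p6. limma-trend and edgeR were also run on simulated counts with the same dispersion for every gene. That was a check of the code and not of power in these libraries. Python 3.11.15 was used for the rest.

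The members, gene lists and rules were chosen with earlier results of these data known. Named were the members, the targeted gene, genes overlapping a member, markers beside a result, pathway genes at an unadjusted p under 0.05 and the 2 highest per kilobase of each list, and the 3 genes most like each of 5 members. Others (Dio1, Me1, Mbp, Hr, Rxra, Slc16a10, Secisbp2, Serpina7, Gm6743) were named after their values were seen. The values of 1 listed pathway gene are not reported here, though it is in the counts.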

Additional observations from a re-analysis of the deposited data

How the results depend on the processing

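No paired analysis was possible because the columns of the table number the groups separately (controls 1, 2 and 3, the rest 4, 5 and 6) and share no number. Genes at an adjusted p under 0.05 numbered 0 by limma-trend and 0 by edgeR with either scaling, 1 when any gene with a read entered, 1 when every library needed 10 reads and 67 by DESeq2, where 212 adjusted p-values were missing. With 1 library left out they numbered 0 to 6, the highest without control library 1. Genes at an unadjusted p under 0.05 numbered 444 to 2444 with 1 library left out (444 without Bmal1;CKO library 5, 472 without library 4, 1769 without control library 1 and 2444 without control library 3). Of those by limma-trend 648 were higher and 359 lower, against 400 and 392 by edgeR with the deposited size factors and 347 and 382 when every library needed 10 reads. None of the 7 tested members reached an unadjusted p under 0.05 in any alternative. Their median log2 fold change ran from -0.20 to 0.17 with 1 library left out. Over the same fits Thra ran from -0.12 to 0.16, Thrb from -1.57 to 0.84, Ttr from -0.84 to 0.49 and Ncor1 from -0.27 to 0.17, and no other alternative turned the sign of a member. The other pathway genes at an unadjusted p under 0.05 numbered 2, but 1 when every library needed 10 reads, 1 by edgeR with the deposited size factors, 4 by DESeq2 and 0 to 6 with 1 library left out (0 without Bmal1;CKO library 4 or 5, 1 without control library 2, 5 without control library 3 and 6 without control library 1). The causes were not tested. With 3 libraries a group, the 95% intervals of the log2 fold change ran from -3.10 to 2.92 for Thrb, -3.04 to 0.98 for Slco1c1 and -2.22 to 1.76 for Ttr. Dio2 and Dio3 had too few reads to pass the filter of the main fit.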
